A study of Mus musculus with 27 samples.

Results

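TGFβ1 was given to mouse embryonic fibroblasts (MEFs) carrying 5 cardiac transcription factors, and the RNA of these cultures was set against that of factor-carrying MEFs given the DMSO vehicle. The comparison used 6 arrays of the 27 in the series, 3 of HNGMT+TGFβ1 and 3 of HNGMT+DMSO, and all 19938 genes read by a probe set with a single gene symbol. HNGMT stands for Hand2, Nkx2.5, Gata4, Mef2C and Tbx5, delivered by doxycycline-inducible lentivirus together with the rtTA transactivator, and the labels call these cultures 5F. The HNGMT+TGFβ1 cultures received 2 ng/mL TGFβ1, added at Day -1. The HNGMT+DMSO cultures received DMSO as the vehicle control. The cultures with TGFβ1 are recorded as without DMSO, so added TGFβ1 and absent DMSO cannot be told apart. Both groups also carried a lentiviral calcium reporter driven by the Troponin T promoter, were kept in AGM reprogramming medium without EGF with 2 µg/mL doxycycline, and were collected at Day 3. The MEFs came from embryos of mixed background. MEFs without the factors (0TF, called 0F in the labels) with TGFβ1 or DMSO, and cardiac fibroblasts of adult mice (CFs) with HNGMT and TGFβ1 or DMSO, served for comparison, again with 3 cultures in each group. HNGMT MEFs with 0.5 µM of the TGFβ receptor inhibitor SB431542 (SB) are given side by side, and the fit over the MEF arrays also held 0TF MEFs with SB at that dose. Some alternative fits also held CFs with HNGMT and 5 µM SB. All of these groups likewise received 2 µg/mL doxycycline and were collected at Day 3. The labels describe the 0TF cultures as empty vector in one field and as not transduced in another. The labels describe the cultures as independent biological replicates, but do not say whether they came from separate embryos or viral preparations.

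TGFβ1 binds a type II and a type I receptor kinase, and the active receptor phosphorylates Smad2 and Smad3, which enter the nucleus with Smad4. In fibroblasts the pathway is known for driving matrix production and a contractile myofibroblast state, and for slowing the cell cycle in many other cell types. Fibroblasts forced to express cardiac transcription factors begin to express cardiac genes within days, and the comparison asks what added TGFβ1 does to the RNA of such cells at an early time. An array of whole cultures cannot tell fewer cells of a type from less RNA per cell.

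The values are log2 signals, so a difference of 1 is a fold of 2. Array medians lay between 7.83 and 7.88 in HNGMT+TGFβ1 and between 7.87 and 7.90 in HNGMT+DMSO, and the median difference over all genes was 0.016. A gene was called where its Benjamini-Hochberg adjusted p in limma was under 0.05 and its fold at least 1.5. The 10 measured reference genes gave 0 calls, with differences between -0.07 and 0.16.

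The delivered factors were read first, as a check on the labels. Hand2 measured 11.60, 11.77 and 11.71 in HNGMT+TGFβ1 and 11.66, 11.75 and 11.65 in HNGMT+DMSO. In 0TF MEFs it measured 8.95, 8.89 and 8.94 with TGFβ1 and 9.18, 9.30 and 9.15 with DMSO. All 6 HNGMT cultures thus lay above all 6 0TF cultures for Hand2. Its levels in the HNGMT cultures with TGFβ1 and with DMSO overlapped (difference 0.00, SE 0.06, adjusted p = 0.97). Nkx2-5 and Gata4 differed by -0.01 (SE 0.11) and 0.12 (SE 0.10) between HNGMT+TGFβ1 and HNGMT+DMSO. Mef2c and Tbx5 were lower by amounts under the fold threshold, with differences of -0.53 (SE 0.07, adjusted p = 5e-06) and -0.51 (SE 0.07, adjusted p = 2.2e-05). In 0TF MEFs, 2 of the 5 factor genes were called lower with TGFβ1. The mean level of the 5 lay between 9.52 and 9.68 in HNGMT+TGFβ1 and between 9.76 and 9.83 in HNGMT+DMSO. In 0TF MEFs it lay between 9.10 and 9.12 with TGFβ1 and between 9.48 and 9.56 with DMSO. The methods' RT-PCR assays for these 4 factors are human assays and that for Hand2 is a mouse assay, and whether the mouse probe sets read the delivered copies of the 4 was not tested.

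TGFβ1 changed 1150 genes in HNGMT MEFs, of which 444 rose and 706 fell. These are 5.77% of the genes tested, 2.23% higher and 3.54% lower, and they are the background for each count of a gene list below. At a fold of at least 2, 127 genes rose and 340 fell. At a fold of at least 4, 7 rose and 39 fell. Without a fold threshold 4290 genes were higher and 2852 lower, 35.8% of those tested, so most small differences were upward and most large ones downward. For each of the 1150 the highest culture of one group lay below the lowest of the other, which was also so for 41.8% of all genes tested, 25.6% upward and 16.2% downward.

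**Figure D1:**
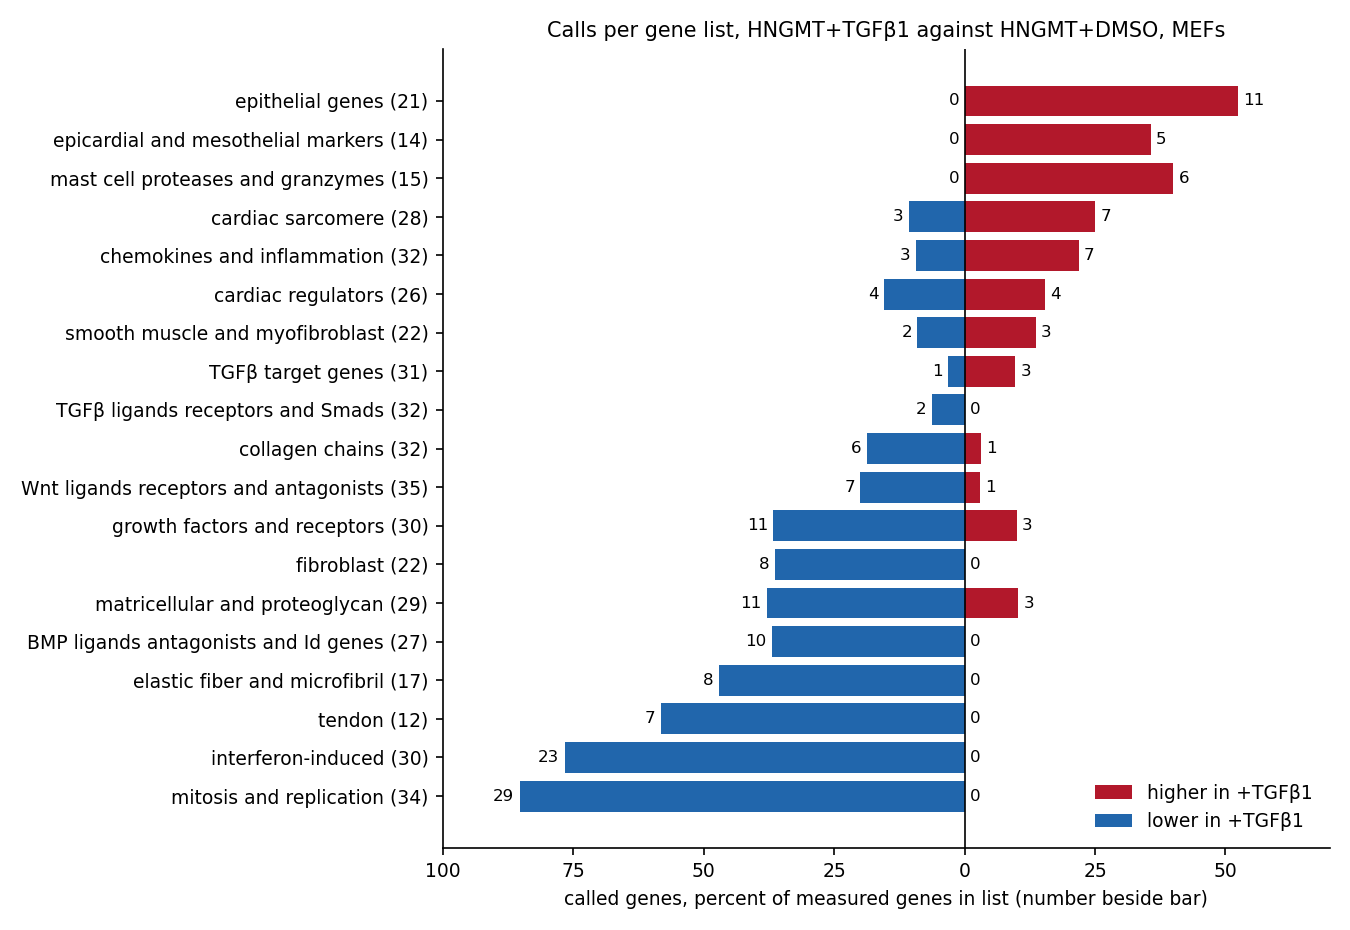
Called genes in each gene list, as a percent of the measured genes of the list (horizontal axis; number measured in parentheses), higher in HNGMT+TGFβ1 to the right and lower to the left, with the number of genes beside each bar. In the mitosis and replication list 29 of 34 genes fell and in the interferon-induced list 23 of 30 fell, with 0 called higher in either.

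Genes of the heart muscle changed in both directions. Of 28 measured genes of the cardiac sarcomere, 7 rose and 3 fell, with a median difference of 0.11 over the list against 0.016 over all genes. Xirp1, an actin-binding protein of the intercalated disc, measured 9.20, 9.41 and 9.25 in HNGMT+TGFβ1 and 8.36, 8.03 and 8.05 in HNGMT+DMSO. Tnni1, the slow skeletal troponin I of the embryonic heart, measured 11.31, 11.27 and 11.33 in HNGMT+TGFβ1 and 10.19, 10.26 and 10.31 in HNGMT+DMSO. Every culture with TGFβ1 was above every culture with DMSO for both genes, and the increases were 1.14 (SE 0.10, adjusted p = 6.5e-08) and 1.05 (SE 0.09, adjusted p = 4.9e-08). Myl4, the atrial essential myosin light chain, rose by 0.97 (SE 0.09), and Ttn, the giant elastic protein titin, by 0.74 (SE 0.06), or by 0.56 with array weights, under the fold threshold. Nebl, a nebulin-related protein of the Z-disc, rose by 0.76, although the mean of all its probe sets gave 0.47, under the fold threshold. Myoz2, a calcineurin-binding Z-disc protein, and Tnnc1, the cardiac troponin C, rose by 0.86 and 0.60. Actc1, the cardiac alpha-actin, went the other way: it measured 10.37, 10.37 and 10.33 in HNGMT+TGFβ1 and 11.49, 11.27 and 11.25 in HNGMT+DMSO, and fell by 0.98 (SE 0.15, adjusted p = 5.63e-05). Tnni3, the adult cardiac troponin I, fell by 0.75 and Myl7, the atrial regulatory light chain, by 0.60. The atrial myosin light chains thus stood on both sides, as did the troponin I forms. Tnnt2, the cardiac troponin T, had a fold of 1.12 with an adjusted p of 0.0922, and Myh6, the alpha-myosin heavy chain, differed by -0.12 (SE 0.14, adjusted p = 0.59).

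Among 24 genes of calcium handling and conduction, 1 rose and 3 fell. Fkbp1b, which stabilizes the ryanodine receptor, rose by 0.96 (SE 0.06, adjusted p = 1.5e-09), with 9.49, 9.74 and 9.67 in HNGMT+TGFβ1 against 8.61, 8.74 and 8.68 in HNGMT+DMSO. Kcnj2, the inward rectifier potassium channel of resting heart muscle, measured 7.06, 7.21 and 7.14 in HNGMT+TGFβ1 and 7.88, 8.14 and 8.08 in HNGMT+DMSO. Pln, phospholamban, the inhibitor of the sarcoplasmic calcium pump, measured 6.95, 7.29 and 6.99 in HNGMT+TGFβ1 and 7.71, 7.73 and 7.79 in HNGMT+DMSO. Both lay lower in every culture with TGFβ1, and fell by 0.90 (SE 0.09) and 0.67 (SE 0.10). Hcn4, the pacemaker channel, fell by 0.60, just past the threshold, and was at -0.58 without HNGMT+TGFβ1 replicate 1 and at -0.53 without HNGMT+DMSO replicate 2, where it was not called. It was also not called with quantile normalization (-0.57) or median centring (-0.58).

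Of 26 cardiac regulators and signals, 4 rose and 4 fell. Nppb, the B-type natriuretic peptide of stretched heart muscle, was the member that rose most, with 11.72, 11.67 and 11.84 in HNGMT+TGFβ1 against 10.45, 10.39 and 10.45 in HNGMT+DMSO (2.49-fold, adjusted p = 6.01e-09). Smyd1, a methyltransferase needed for myofibril assembly, Wnt11, a noncanonical Wnt ligand of the early heart, and Popdc2, a cAMP-binding membrane protein of heart muscle, rose by 0.73, 0.64 and 0.62, with Wnt11 at 0.56 and not called with array weights. Bmp2, a BMP ligand that induces heart fields, measured 7.25, 7.50 and 7.62 in HNGMT+TGFβ1 and 8.40, 8.63 and 8.51 in HNGMT+DMSO. Ppargc1a, the coactivator of mitochondrial gene expression, measured 8.41, 8.60 and 8.44 in HNGMT+TGFβ1 and 9.45, 9.58 and 9.43 in HNGMT+DMSO. The cultures did not overlap for either gene, and they fell by 1.06 (SE 0.11) and 1.00 (SE 0.06). Myocd, the coactivator of serum response factor in heart and smooth muscle, fell by 0.72 (SE 0.07), and Hopx, a homeodomain protein of cardiac progenitors, by 0.60.

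**Figure D2:**
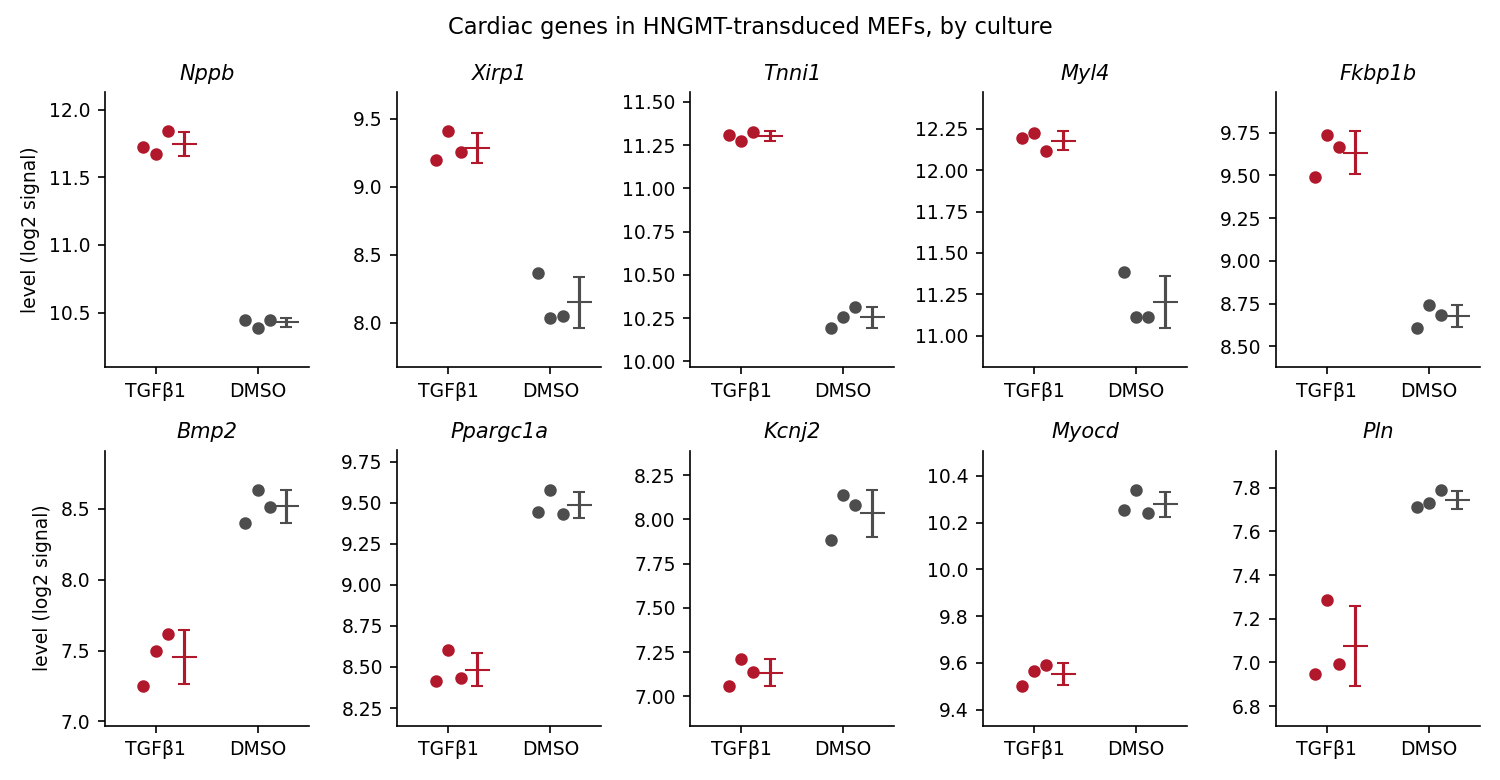
Level (log2 signal) of 10 cardiac genes in each HNGMT-transduced MEF culture, TGFβ1 at the left and DMSO at the right of each panel, with a bar for the mean and SD of 3 cultures. The vertical axes differ and do not start at 0. In the upper row all cultures with TGFβ1 lie above those with DMSO, as for Nppb, and in the lower row all lie below, as for Bmp2.

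Few of the pathway's own components passed the fold threshold. Of 32 measured TGFβ ligands, receptors and Smads, 0 rose and 2 fell. By adjusted p alone in limma, 13 of the 32 were higher and 9 lower, against 21.5% and 14.3% of all genes. Tgfbr3, betaglycan, the coreceptor that presents ligand to the type II receptor, measured 9.49, 9.66 and 9.70 in HNGMT+TGFβ1 and 10.77, 10.97 and 10.90 in HNGMT+DMSO, and fell by 1.27 (SE 0.06, adjusted p = 4.1e-11). Fst, follistatin, an antagonist of activin, fell by 1.09 (SE 0.06). Tgfbr2, the type II receptor, and Smad3 and Smad4 differed by -0.45, -0.17 and -0.12, with adjusted p of 9.48e-09, 0.000151 and 0.0163 but folds under the threshold, and Smad2 differed by -0.07 (adjusted p = 0.311). Smad7, the inhibitory Smad, and Inhba, the activin A subunit, differed by 0.49 and 0.58. Of 31 known TGFβ target genes, 3 rose (9.68%, against 2.23% of all genes) and 1 fell. Of the 31, 22 were higher in every culture with TGFβ1 than in any with DMSO, which held for 25.6% of all genes, and the median difference was 0.17 against 0.016. Plaur, the urokinase receptor, rose by 0.92 (SE 0.04), Rgcc, a regulator of the cell cycle, by 0.80 and Angptl4, a secreted inhibitor of lipoprotein lipase, by 0.76, while Snai2, a transcription factor of mesenchymal cells, fell by 0.82. Among the targets not called were Ccn2, a matricellular growth factor, and Pmepa1, a feedback inhibitor, with folds of 1.02 and 1.03 and adjusted p of 0.689 and 0.343, both chosen after their values were seen.

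Of 27 measured BMP ligands, antagonists and Id genes, 10 fell, 17 were not called and 0 rose, while Bmp8b, a BMP ligand that the list does not hold, rose by 1.72 (SE 0.05). Id2, a helix-loop-helix inhibitor of differentiation and an immediate target of BMP Smads, measured 10.22, 10.40 and 10.34 in HNGMT+TGFβ1 and 11.81, 11.77 and 11.67 in HNGMT+DMSO. It fell by 1.43 (SE 0.05, adjusted p = 8.4e-13), and Id1 by 1.08 (SE 0.05). The antagonists Grem1, Chrdl1 and Chrd, which bind BMP ligands outside the cell, fell by 1.25, 1.02 and 0.63. The 10 that fell thus included antagonists as well as target genes.

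Elastic fiber, collagen and matricellular genes fell more often than they rose, while collagen processing enzymes and proteases did not. Elastic fiber and microfibril genes fell in 8 of 17 and rose in 0, with a median of -0.24. Eln, elastin, measured 8.45, 8.40 and 8.28 in HNGMT+TGFβ1 and 10.70, 10.72 and 10.68 in HNGMT+DMSO, and fell by 2.32 (SE 0.07, adjusted p = 1.2e-13). The microfibril genes Fbn2 and Mfap4 and the fibulins Efemp1 and Fbln5 fell by 1.34, 1.27, 1.24 and 0.93. Of 32 collagen chains, 6 fell and 1 rose. Col14a1, a fibril-associated collagen, measured 8.07, 8.09 and 8.18 in HNGMT+TGFβ1 and 9.92, 10.05 and 9.93 in HNGMT+DMSO, and Col3a1, a fibrillar collagen, fell by 0.97 (SE 0.04). The cultures were fully apart for both. Col10a1, the collagen of hypertrophic cartilage, was the collagen that rose, by 1.18 (SE 0.07). Col1a1, the main fibrillar collagen, had a fold of 1.06 with an adjusted p of 0.0998.

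Among 29 matricellular proteins and proteoglycans, 11 fell and 3 rose. Ccn3, a matricellular protein of the CCN family, measured 8.25, 8.43 and 8.46 in HNGMT+TGFβ1 and 11.16, 11.20 and 11.09 in HNGMT+DMSO. Comp, a cartilage and tendon matrix protein, measured 8.25, 8.45 and 8.42 in HNGMT+TGFβ1 and 10.64, 10.76 and 10.68 in HNGMT+DMSO. Both were lower in every culture with TGFβ1, and fell by 2.77 and 2.31, each with an SE of 0.05. Dcn, decorin, which binds collagen and TGFβ, fell by 1.56, Hapln1, a hyaluronan link protein, by 1.31, and Fmod, fibromodulin, by 1.29. Has2, the hyaluronan synthase, and Acan, the cartilage proteoglycan aggrecan, rose by 1.31 and 1.17. Of 12 tendon genes 7 fell and 0 rose, and 4 of the 7, Comp, Col14a1, Fmod and Thbs4, are members of the collagen or matricellular lists as well.

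Proteases rose and fell in equal number, 4 and 4 of 28. Mmp13, collagenase 3, measured 11.89, 11.95 and 11.96 in HNGMT+TGFβ1 and 9.08, 9.46 and 9.34 in HNGMT+DMSO (6.25-fold, adjusted p = 9.26e-12). Mmp9, gelatinase B, rose by 1.67 (SE 0.08) and Adamts12, a metalloprotease of cartilage matrix, by 0.83, while Adamts1, which cleaves proteoglycans, fell by 1.60 (SE 0.04). Of 19 collagen processing enzymes 3 rose and 1 fell. Tgm2 and Loxl4, which crosslink matrix proteins, and Plod2, a lysyl hydroxylase, rose by 0.98, 0.78 and 0.60, and P4ha3, a prolyl hydroxylase, fell by 0.63. Plod2 was at 0.56 without HNGMT+DMSO replicate 1 and P4ha3 at -0.56 without HNGMT+TGFβ1 replicate 1, under the fold threshold. Plod2 was also under it with quantile normalization, at 0.55, and P4ha3 with array weights, at -0.54. The promoter window of Mmp13 is shown because Mmp13 was the protease that rose most. The window is from RefSeq on GRCm38.p6 (chr9:7272264-7272563, plus strand), mostly upstream of the start site, and the capitals mark 1 match to TGANTCA, the letters of an AP-1 site, searched on both strands. The same letters stand in 7.81% of the 32851 windows in the table.
Mmp13: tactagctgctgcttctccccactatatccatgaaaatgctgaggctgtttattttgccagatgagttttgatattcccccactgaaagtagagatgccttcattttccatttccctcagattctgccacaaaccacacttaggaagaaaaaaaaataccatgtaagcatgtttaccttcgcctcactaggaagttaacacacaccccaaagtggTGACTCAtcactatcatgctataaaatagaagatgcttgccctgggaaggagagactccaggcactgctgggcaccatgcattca

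Fibroblast genes fell in 8 of 22 and rose in 0. Cd34, a sialomucin of resting connective tissue cells, measured 9.15, 9.33 and 9.19 in HNGMT+TGFβ1 and 11.65, 11.66 and 11.68 in HNGMT+DMSO and fell by 2.44 (SE 0.09). Lum, lumican, a proteoglycan of collagen fibrils, fell by 2.05, Dpt, dermatopontin, by 1.54, and Prrx1, a homeobox gene of limb and skin mesenchyme, by 0.90. Vim, vimentin, differed by -0.03 (SE 0.03) and S100a4 by -0.52 (SE 0.10), under the fold threshold. Smooth muscle and myofibroblast genes gave 3 rises and 2 falls among 22. Myh11, the smooth muscle myosin heavy chain, Cnn1, calponin, and Pdlim3, a Z-disc adaptor, rose by 0.76, 0.71 and 0.67, and Mylk, the myosin light chain kinase, fell by 1.16 (SE 0.06). Acta2, the smooth muscle alpha-actin, had a fold of 1.11 with an adjusted p of 0.158.

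Genes of cell division fell together. Of 34 measured genes of mitosis and DNA replication, 29 fell and 0 rose, with a median of -1.17 against 0.016 over all genes. All 34 were lower in every culture with TGFβ1 than in any with DMSO, which held for 16.2% of all genes. Mki67, a protein of the chromosome surface used as a mark of cycling cells, measured 9.67, 9.89 and 9.78 in HNGMT+TGFβ1 and 11.38, 11.60 and 11.54 in HNGMT+DMSO. Ccnb2, a B-type cyclin of mitosis, measured 10.54, 10.73 and 10.73 in HNGMT+TGFβ1 and 12.23, 12.33 and 12.31 in HNGMT+DMSO. The groups were apart for both, which fell by 1.73 (SE 0.06, adjusted p = 2.1e-13) and 1.62 (SE 0.05, adjusted p = 1.5e-13). Nusap1, a spindle protein, fell by 1.60, Ccna2, the cyclin of S phase and G2, by 1.56, and Mcm6, a subunit of the replicative helicase, by 1.38. Measured against the mean of the DMSO cultures, the median member lay at -1.25, -1.13 and -1.09 in the 3 cultures with TGFβ1, and at -0.07, 0.05 and 0.03 in those with DMSO. Among 18 G1 cyclins, cyclin-dependent kinase inhibitors and Myc genes, 2 were called. Cdkn2c, an inhibitor of Cdk4 and Cdk6, fell by 1.58, and Rbl1, a pocket protein, fell by 0.97. Cdkn2a, which encodes p16 and p19Arf, and Cdkn1c, the inhibitor p57, differed by 0.52 and 0.39, under the fold threshold.

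The promoter windows of Mki67 (chr7:135716330-135716629, minus strand) and Ccnb2 (chr9:70421505-70421804, minus strand) are shown as examples of this group, with capitals at each match to TTTGAA, the letters of the cell cycle homology region, on either strand. These letters occur in the windows of 12 of 26 measured members that have one (46.2%) and of 20.2% of all genes in the table. A match is a description of the letters and not a site.
Mki67: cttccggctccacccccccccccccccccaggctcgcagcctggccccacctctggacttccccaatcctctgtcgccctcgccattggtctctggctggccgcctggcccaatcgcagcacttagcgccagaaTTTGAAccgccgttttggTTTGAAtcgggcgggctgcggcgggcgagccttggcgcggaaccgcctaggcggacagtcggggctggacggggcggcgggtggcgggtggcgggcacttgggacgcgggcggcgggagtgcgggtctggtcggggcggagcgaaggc
Ccnb2: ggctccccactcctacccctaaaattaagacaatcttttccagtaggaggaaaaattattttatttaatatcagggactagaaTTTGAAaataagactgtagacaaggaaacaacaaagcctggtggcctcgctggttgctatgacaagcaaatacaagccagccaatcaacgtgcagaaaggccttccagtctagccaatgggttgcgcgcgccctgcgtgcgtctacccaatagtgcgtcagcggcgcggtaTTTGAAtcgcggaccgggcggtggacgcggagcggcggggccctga

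Interferon-induced genes also fell in most of the list. Of 30 measured, 23 fell and 0 rose, with a median of -1.10. Oas2, an RNA-sensing oligoadenylate synthetase, measured 7.64, 7.59 and 7.34 in HNGMT+TGFβ1 and 9.31, 9.23 and 9.30 in HNGMT+DMSO. Gbp3, a guanylate-binding protein of antimicrobial defence, measured 7.94, 8.45 and 7.16 in HNGMT+TGFβ1 and 9.74, 9.55 and 9.64 in HNGMT+DMSO. All cultures with TGFβ1 were lower, but Gbp3 spread widely among them and little among those with DMSO, and it fell by 1.80 with an SE of 0.23 (adjusted p = 6.5e-06), while Oas2 fell by 1.76 with an SE of 0.09. Slfn5, a Schlafen protein, fell by 1.62, Psmb8, a subunit of the immunoproteasome, by 1.16, and Sp100, a nuclear body protein, by 1.03. The median member of the interferon-induced list lay at -1.23, -0.71 and -1.26 in the cultures with TGFβ1, and at 0.024, -0.003 and -0.005 in those with DMSO. The second culture with TGFβ1 was thus the least changed, and with single cultures left out the number that fell was between 22 and 25.

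**Figure D3:**
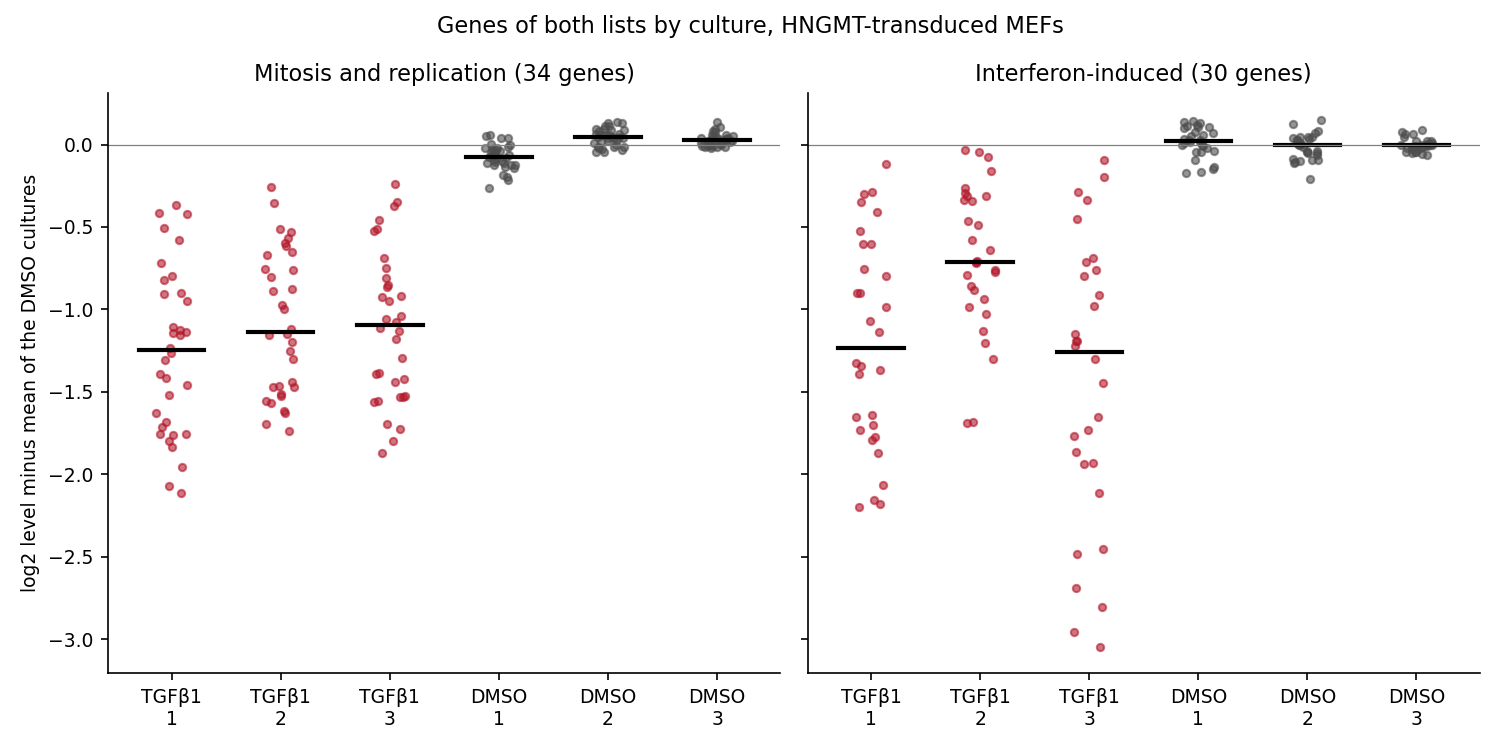
Level of each gene of the mitosis and replication list (left, 34 genes) and the interferon-induced list (right, 30 genes) in each HNGMT-transduced MEF culture, as log2 level minus the mean of the DMSO cultures, with a line at the median. The medians with TGFβ1 lie between -1.25 and -1.09 at the left and between -1.26 and -0.71 at the right.

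Promoter windows of Gbp3 (chr3:142559794-142560093, plus strand) and Slfn5 (chr11:82951852-82952151, plus strand) are shown for this group, with capitals at matches to GAAA, any 2 bases, then GAAA, the core of the interferon-stimulated response element, on either strand. Gbp3 holds 2 overlapping matches and Slfn5 holds 1. The letters occur in the windows of 12 of 22 measured members that have one (54.5%) and of 3.99% of all genes in the table, and no statement on a factor follows from them.
Gbp3: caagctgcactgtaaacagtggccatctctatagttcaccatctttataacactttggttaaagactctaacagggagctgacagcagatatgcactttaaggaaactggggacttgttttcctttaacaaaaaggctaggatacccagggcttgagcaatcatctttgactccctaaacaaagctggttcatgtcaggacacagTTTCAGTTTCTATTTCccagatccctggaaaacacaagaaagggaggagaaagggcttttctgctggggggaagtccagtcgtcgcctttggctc
Slfn5: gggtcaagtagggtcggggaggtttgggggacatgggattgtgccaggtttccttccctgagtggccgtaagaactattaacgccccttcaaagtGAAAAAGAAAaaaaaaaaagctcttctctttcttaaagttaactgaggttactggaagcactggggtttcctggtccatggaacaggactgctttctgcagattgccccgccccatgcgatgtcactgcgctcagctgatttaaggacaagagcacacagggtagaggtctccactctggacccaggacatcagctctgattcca

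Complement and acute phase genes fell in 4 of 21 and rose in 2. C1s1, a protease of the classical pathway, and Serping1, its inhibitor, fell by 1.78 (SE 0.16) and 1.68 (SE 0.07), and Clu, clusterin, a secreted chaperone, rose by 0.97. Chemokines and inflammatory genes rose in 7 of 32 and fell in 3. Il1a, interleukin 1 alpha, measured 7.55, 7.90 and 7.82 in HNGMT+TGFβ1 and 5.96, 5.88 and 5.94 in HNGMT+DMSO. Ccl2, the chemokine that draws monocytes, measured 12.39, 12.34 and 12.26 in HNGMT+TGFβ1 and 10.84, 10.71 and 10.82 in HNGMT+DMSO. Both rose in every culture, by 1.83 (SE 0.07) and 1.54 (SE 0.07), and Cxcl16, a membrane-bound chemokine, rose by 1.36. Ccl5, a chemokine that interferon can also induce, fell by 1.24 (SE 0.07). With the dimmest 40% of genes left out, 4 in place of 7 chemokines and inflammatory genes rose, because fewer were tested.

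Secreted growth factors and their receptors fell in 11 of 30 and rose in 3. Kitl, the stem cell factor, measured 8.71, 8.80 and 8.90 in HNGMT+TGFβ1 and 10.08, 10.20 and 10.12 in HNGMT+DMSO, and fell by 1.33 (SE 0.06). Fgfr2, a receptor of the FGF family, fell by 1.60, and the FGF ligands Fgf7 and Fgf10, which signal from mesenchyme to epithelium, fell by 1.59 and 1.33. Pdgfb, the B chain of platelet-derived growth factor, went against these, with 10.34, 10.59 and 10.37 in HNGMT+TGFβ1 and 8.97, 8.80 and 8.81 in HNGMT+DMSO and rose by 1.57 (SE 0.07). Wnt ligands, receptors and antagonists fell in 7 of 35 and rose in 1. Rspo2, which amplifies Wnt signals through Lgr receptors, fell by 2.93 (SE 0.11), Fzd4, a Wnt receptor, fell by 1.82 and Sfrp2, a secreted antagonist, by 1.64. Of 15 IGF ligands and binding proteins, 5 fell and 1 rose, with Igfbp5 and Igf1 down by 1.46 and 0.92 and Pappa, a protease that cleaves IGF binding proteins, up by 0.95. Of 15 Notch receptors, ligands and Hey genes, 0 were called.

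The genes that rose most were not of the heart. Scgb1a1, the secretoglobin of airway club cells, measured 10.54, 10.63 and 10.54 in HNGMT+TGFβ1 and 7.55, 7.12 and 7.28 in HNGMT+DMSO (9.53-fold, adjusted p = 2.61e-14). After it and Mmp13 came Mcpt2, a mast cell protease, with 8.72, 9.12 and 8.48 in HNGMT+TGFβ1 and 6.43, 6.24 and 6.28 in HNGMT+DMSO, and Gzme, a granzyme, which rose by 2.45 (SE 0.13). Groups did not overlap for any of these, which held for every called gene. Olr1, the receptor of oxidized low-density lipoprotein, rose by 2.40, Nxph4, a neurexophilin, by 2.13 and F2rl2, a thrombin receptor, by 2.06. Tmem45b, Mab21l4, Moxd1 and Bmp8b, a BMP ligand, rose by 1.84, 1.83, 1.75 and 1.72.

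Among the 15 genes that fell most, Epyc, epiphycan, a cartilage proteoglycan, came first with 6.56, 6.65 and 6.64 in HNGMT+TGFβ1 and 10.67, 10.95 and 10.87 in HNGMT+DMSO (18.5-fold, adjusted p = 5.58e-16). Agtr2, the type 2 angiotensin receptor, measured 7.44, 7.62 and 7.83 in HNGMT+TGFβ1 and 11.29, 11.31 and 11.41 in HNGMT+DMSO. Itih5, which binds hyaluronan, fell by 3.36 (SE 0.05) and Penk, the precursor of enkephalins, fell by 3.13 (SE 0.11). For all 4 the cultures of a group lay far closer to each other than to those of the other group. Lrrtm3, a synaptic adhesion protein, fell by 3.02, and Angptl1, an angiopoietin-like protein, and Meox2, a homeobox gene of mesoderm, by 2.86 each. Abi3bp, a matrix protein, Fgl2, a prothrombinase, Apod, a lipocalin, and Tslp, a cytokine, differed by -2.85, -2.75, -2.67 and -2.50. Phf11d fell by 2.99 with 7.18, 8.40 and 6.67 in HNGMT+TGFβ1, the same uneven cultures as for Gbp3, against 10.50, 10.37 and 10.36 in HNGMT+DMSO.

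Genes of epithelial cells and of mast cell granules stood out among those that rose, and both lists were made after their values were seen, so their counts are a description. Of 21 epithelial genes, 11 rose and 0 fell. Krt7, a keratin of simple epithelia, measured 12.23, 12.13 and 12.12 in HNGMT+TGFβ1 and 10.77, 10.48 and 10.59 in HNGMT+DMSO. Esrp1, a splicing factor of epithelial cells, measured 8.17, 8.30 and 8.11 in HNGMT+TGFβ1 and 6.59, 6.58 and 6.68 in HNGMT+DMSO. Both were higher in all cultures with TGFβ1, as were Prss8, a membrane protease, Sfn, the 14-3-3 sigma protein, Krt18 and Krt8, which pair in simple epithelia, and Spint1, a protease inhibitor, by 1.54, 1.35, 1.33, 1.10 and 1.08. Epcam, an epithelial adhesion protein, rose by 0.67, while Krt5, Grhl2 and Ocln, of basal cells, epithelial gene control and tight junctions, differed by -0.08, -0.03 and -0.01. The mean level of the epithelial list lay between 8.60 and 8.64 in HNGMT+TGFβ1 and between 7.92 and 8.06 in HNGMT+DMSO, and between 7.36 and 7.43 in 0TF MEFs with DMSO. With the dimmest 40% of genes left out 7 epithelial genes rose. Of 14 epicardial and mesothelial markers, 5 rose, 3 of which are epithelial genes as well. That count was 3 without the dimmest 40% of genes and 3 without replicate 2 of both groups.

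Of 15 mast cell proteases and granzymes, 6 rose and 0 fell. Mcpt4 rose by 1.79 (SE 0.14), Mcpt8 by 1.69 (SE 0.07), Mcpt1 by 0.75 and Gzmd by 0.59. The defining markers of mast cells did not move with them: of 7, among them Cpa3, Kit and Fcer1a, 0 were called, with a mean level of the list between 6.61 and 6.70 in HNGMT+TGFβ1 and between 6.69 and 6.77 in HNGMT+DMSO. With the dimmest 40% of genes left out, 0 of these genes were called, because those that rose were no longer tested. Markers of other cell types also gave calls, against 2.23% higher and 3.54% lower over all genes. Of 28 adipocyte markers 3 rose and 3 fell (10.7% each). Of 17 cartilage and bone markers 1 rose (5.88%) and 3 fell (17.6%). Of 11 neuronal markers 1 rose and 1 fell (9.09% each), and of 22 skeletal muscle markers 1 rose (4.55%). Of 20 endothelial markers 1 fell (5.0%), Erg, by 1.91. Of 14 leukocyte markers 2 rose, Csf1r, by 0.97, and Cd74, by 0.73, and the mean level of the leukocyte list was between 7.29 and 7.37 in HNGMT+TGFβ1 and between 7.08 and 7.16 in HNGMT+DMSO. The part of such cells in the results was not tested.

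The TGFβ1 difference with the factors was then set against that without them, which uses other cultures. In 0TF MEFs, 839 genes rose (4.21%) and 1235 fell (6.19%) with TGFβ1, in all 10.4% of the genes tested, of which 40.5% were higher, or 52.3% after each array was centred on its median. The difference between both TGFβ1 effects was itself tested, and 1486 genes (7.45%) were called, 934 (4.68%) with a more positive and 552 (2.77%) with a more negative effect in HNGMT MEFs. Of the 444 genes that rose in HNGMT MEFs, 151 also rose in 0TF MEFs, which is 34.0% of the first list and 18% of the second. Of the 706 that fell, 519 also fell, 73.5% of the first list and 42.0% of the second.

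The difference was called more positive in HNGMT MEFs for 8 and more negative for 4 of 28 sarcomere genes, for 4 and 4 of 24 calcium handling genes, and for 5 and 1 of 26 cardiac regulators. Among the more negative were Actc1, Myl7, Kcnj2, Pln, Hcn4 and Myocd. Among the more positive were Xirp1, Tnni1, Myl4, Nppb and Fkbp1b, whose TGFβ1 effects in 0TF MEFs were all between -0.07 and 0.10. Nppb, for example, measured 7.17, 7.31 and 7.08 in 0TF MEFs with TGFβ1 and 7.36, 7.09 and 7.12 with DMSO. Bmp2 was also called more positive, but it fell in both, by 1.06 in HNGMT MEFs and by 2.46 in 0TF MEFs. Fgl2 fell by 2.75 with the factors and by 0.16 without them, a difference of -2.59 (adjusted p = 1.7e-10). Scgb1a1 and Mcpt2, the genes far up on the vertical axis of the plot of both effects, differed by 0.04 and 0.15 in 0TF MEFs. Krt7 and Esrp1 differed by -0.06 and 0.06 in 0TF MEFs, and the difference from HNGMT MEFs was called for 9 of the 21 epithelial genes.

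Other genes answered TGFβ1 more in 0TF MEFs. Interferon-induced genes fell in 29 of 30 there with a median of -2.36, and for 21 of them the effect was called less negative in HNGMT MEFs. The mean level of the interferon-induced list was between 10.5 and 10.6 in HNGMT MEFs with DMSO and between 11.3 and 11.6 in 0TF MEFs with DMSO, and with TGFβ1 between 9.11 and 9.86 in HNGMT and between 8.84 and 9.26 in 0TF MEFs. Of 24 ATF4 stress response genes, which serve amino acid supply, 13 rose in 0TF MEFs and 2 in HNGMT MEFs, and the effect was called more negative in HNGMT MEFs for 11. Cnn1 rose by 0.71 with the factors and by 2.99 without them, and Comp fell by 2.31 with them and fell by 4.62 without them, and both differences were called. Mitosis and replication genes differed the other way, with a median of -1.17 in HNGMT and -0.78 in 0TF MEFs and 8 of 34 called more negative in HNGMT MEFs.

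**Figure D4:**
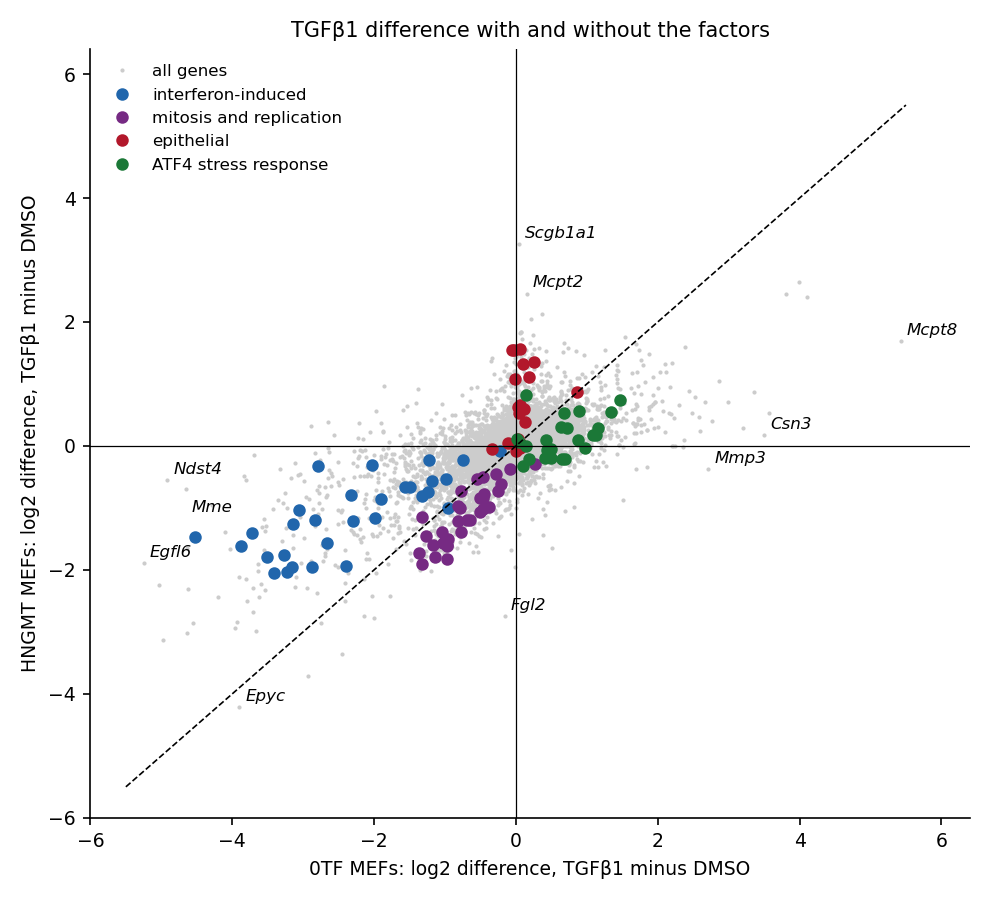
TGFβ1 minus DMSO difference (log2) of each of 19938 genes in HNGMT MEFs (vertical axis) against that in 0TF MEFs (horizontal axis), with the dashed line at equal effects and 4 gene lists in colour. Scgb1a1 and Mcpt2 lie near 0 on the horizontal axis, and Mcpt8, at 1.69 and 5.43, lies far to the right.

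In CFs with HNGMT the same dose of TGFβ1 gave another picture for the matrix. The CF and MEF arrays differ in their deposited scale, with medians of 7.36 to 7.43 and of 7.83 to 7.91, and pairs of CF arrays of a group held between 495 and 938 exactly equal gene values where those of MEF arrays held between 2 and 9, so levels were not compared and only the TGFβ1 effects were. Cell type and array processing cannot be told apart in this comparison. In the fit of both cell types, 401 genes rose (2.01%) and 457 fell (2.29%) in CFs, in all 4.3%. With all 9 CF arrays in the fit, a choice made after seeing the data, the split turned. There 307 genes were higher and 186 lower, or 62.3% higher against 46.7%. This fit adds 3 arrays of CFs with HNGMT and 5 µM SB. Replicate 3 of these differed from replicates 1 and 2 with SDs of 0.38 and 0.40 over all genes. Other pairs of arrays of a group had SDs up to 0.196. The part of that array in the turn was not tested. The effect differed between the cell types for 1018 genes (5.11%), 428 (2.15%) more positive and 590 (2.96%) more negative in MEFs. Eln fell by 2.32 in MEFs and rose by 2.86 in CFs. Gxylt2, a xylosyltransferase of Notch proteins, fell by 1.67 in MEFs and rose by 3.80 in CFs, and Igf1 fell by 0.92 in MEFs and rose by 2.79 in CFs. Col3a1 and Postn, periostin, fell by 0.97 and 0.65 in MEFs and rose by 0.74 and 1.47 in CFs. For the elastic fiber list the effect was called more negative in MEFs for 9 of 17 genes, and for the matricellular list for 14 of 29.

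Other genes moved alike in both cell types, as far as both were called in the same direction. These were 156 of the 444 that rose in HNGMT MEFs and 211 of the 706 that fell. Nppb rose by 1.32 in MEFs and 1.29 in CFs, Il1a by 1.83 and 1.98, and Krt7 by 1.55 and 2.11, and the difference was not called for these 3 genes. Myocd fell by 0.72 in MEFs and 0.98 in CFs, and Tgfbr3 by 1.27 and 1.62. Mmp13, Mcpt2 and Scgb1a1 rose more in MEFs, with effects of 0.04, 0.17 and 1.05 in CFs.

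**Figure D5:**
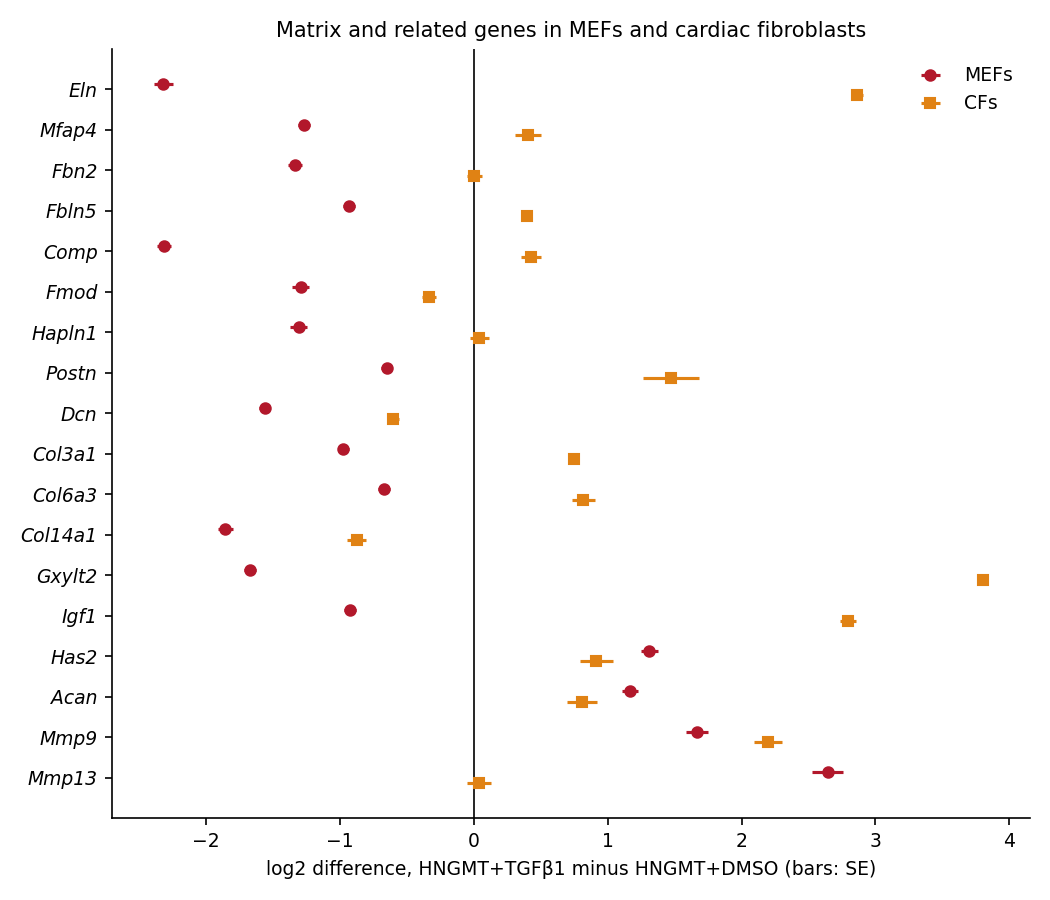
TGFβ1 minus DMSO difference (log2, horizontal axis) of 18 matrix and related genes in HNGMT-transduced MEFs (circles) and CFs (squares), with bars for the SE of the fit, some narrower than the marker. Eln, Gxylt2 and Igf1 lie below 0 in MEFs and above 0 in CFs, and Has2, Acan and Mmp9 lie above 0 in both.

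HNGMT MEFs with SB were set against the same HNGMT+DMSO cultures, so both differences share them and are only given side by side. Pln differed by -0.67 with TGFβ1 and by 1.46 with SB, Bmp2 by -1.06 and 1.22, Ppargc1a by -1.00 and 0.84, Myocd by -0.72 and 0.67, and Tgfbr3 by -1.27 and 0.71. The paper names these genes as raised by SB from the same arrays, so their direction with SB was known beforehand. Adamtsl2, which the paper names as lowered by SB, differed by -0.18 with TGFβ1 and by -1.13 with SB, so it was not opposite. Xirp1 and Nppb, which rose with TGFβ1, differed by -0.13 and 0.35 with SB. Median differences with TGFβ1 and with SB were -1.17 and -0.02 for the mitosis and replication list and -1.10 and 0.23 for the interferon-induced list.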

How the data were processed

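RNA of 27 mouse cultures was read on as many arrays of the Affymetrix Mouse Gene ST type. The authors deposited log2 signals of 35556 probe sets. The labels name MAS5 and the methods also name PartekGS, and the normalization is not given in the sources used here. The number of arrays limits the precision. Probe sets with 1 gene symbol in the platform annotation numbered 21789, those with several 1621 and those with none 12146. The probe set with the highest mean over all arrays stood for the 999 genes with more than 1.

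Groups came from the labels. The test was that of limma 3.58.1 (lmFit and eBayes, R 4.3.3) over the 18 MEF arrays, with 12 residual degrees of freedom, and for the effects in MEFs and CFs over 12 arrays, with 8. The p-values were adjusted over all 19938 genes in each comparison, and measure only the spread between these cultures. Scripts were tested on simulated data. Named genes were the 15 highest and 15 lowest called genes, up to 5 called members of each of 37 lists with the smallest p (with up to 3 others where fewer were called), the delivered factors, the 6 genes at each end of both differences and genes the paper names. Members and lists were chosen with earlier results of these data known, and Myoz2, Tnnc1, Actc1, Tnni3, Myl7, Tnnt2, Smyd1, Popdc2, Hopx, Lum, Col1a1, Acta2, Ccn2, Pmepa1 and the members of 3 added lists were named outside the rule after their values were seen. Promoter windows came from RefSeq (GRCm38.p6). Figures were drawn with Python 3.11.15 and matplotlib 3.10.9. Alternatives were other sets of arrays, a replicate block, an intensity trend, weights on arrays, leaving out genes below the percentile 40, the mean of all probe sets, quantile normalization, median centring, other folds and leaving out each culture in turn.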

Additional observations from a re-analysis of the deposited data

Results flagged for a closer look

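The difference between the TGFβ1 effects of HNGMT and 0TF MEFs was tested for every gene in limma. It was called for 934 genes with a more positive and 552 with a more negative effect in HNGMT MEFs. The most positive differences were those of Ndst4 (4.37), Mme (3.96), Cacna2d3 (3.54), Egfl6 (3.36), Trabd2b (3.35) and Lbp (3.34). Cacna2d3 fell from 10.57 with DMSO to 6.88 with TGFβ1 in 0TF MEFs. In HNGMT+DMSO it was already at 6.96, below the array medians of 7.87 to 7.90, and in HNGMT+TGFβ1 at 6.80. Whether a low level with the factors limited the effect was not tested. The most negative were those of Mcpt8 (-3.74), Csn3 (-3.32), Mmp3 (-3.09), Tfpi2 (-3.04), Scn7a (-2.92) and Fgl2 (-2.59). Mcpt8 rose in both, by 1.69 in HNGMT MEFs and by 5.43 in 0TF MEFs.

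The difference between the TGFβ1 effects of HNGMT-transduced MEFs and CFs was called for 428 genes with a more positive and 590 with a more negative effect in MEFs. The most negative differences were those of Gxylt2 (-5.47), Eln (-5.19), Epyc (-4.18), Igf1 (-3.72), Agtr2 (-3.70) and Enpp3 (-3.45). The most positive were those of Mmp13 (2.60), Mcpt2 (2.29), Scgb1a1 (2.20), Acer2 (2.02), Gzme (1.97) and Gatm (1.95). Epyc and Agtr2 differed by -0.03 and 0.00 in CFs. Agtr2 measured 6.04 in CFs both with TGFβ1 and with DMSO, below the CF array medians of 7.36 to 7.43. Whether its low level there limited the effect was not tested.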

How the results depend on the processing

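No gene named by the rule, and called in the main fit or the alternative, changed direction, but the split between higher and lower did. The genes named outside the rule were not followed singly under the alternatives. With no fold threshold, TGFβ1 changed 4290 genes upward and 2852 downward in HNGMT MEFs and 5488 and 3862 in 0TF MEFs, and the effects differed for 3068 and 3180 genes from 0TF MEFs and for 2325 and 1694 from CFs (more positive and more negative in HNGMT MEFs). At a fold of at least 2 these counts were 127 and 340, 236 and 609, 397 and 151, and 114 and 240. With single cultures left out, 410 to 510 genes rose and 676 to 745 fell in HNGMT MEFs, and 821 to 875 rose and 1204 to 1268 fell in 0TF MEFs. The difference from 0TF MEFs was then more positive for 887 to 1001 and more negative for 511 to 616 genes, and that from CFs for 386 to 494 and 553 to 627. With all 9 CF arrays, a choice made after seeing the data, 307 genes rose and 186 fell in CFs, against 401 and 457. With median centring, 1150 genes rose and 1050 fell in 0TF MEFs, against 839 and 1235. Whether the replicate numbers pair the cultures was not settled. Deviations of same-numbered HNGMT+TGFβ1 and HNGMT+DMSO cultures correlated at 0.585, 0.521 and -0.007 for numbers 1, 2 and 3. Of 18 MEF arrays, 7 correlated best with an array of their own number. With the number as a replicate block, 444 genes rose and 706 fell in HNGMT MEFs, 839 and 1235 in 0TF MEFs, and the effects differed for 933 and 552 and for 430 and 604 genes. Without replicate 1 of both groups 512 genes rose and 718 fell, and without replicate 2 of both 406 and 709, also chosen after seeing the data. Dim genes limit what can be seen: with the dimmest 40% left out, 339 genes rose and 675 fell.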
